A study of Mus musculus with 5 samples.

Results

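The miR-15/16 family comprises 6 mouse miRNAs, mmu-miR-15a-5p, mmu-miR-15b-5p, mmu-miR-16-5p, mmu-miR-195a-5p, mmu-miR-322-5p and mmu-miR-497a-5p (written below without the species prefix), and the positions on RNA at which they were listed as matches beneath Argonaute (Ago) in developing liver are described here. A position was taken when its entry named a member, and entries for the same position were counted once. This rule for positions uses no measured value. This gave 13582 distinct sites among 1645693 distinct sites of all miRNAs, of which the tables held 6212, 3052, 2952, 4911 and 3272. Here and below, 5 values in a row are in the order of age, beginning with e12.5 and ending with the adult.

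The sites come from Ago HITS-CLIP, in which RNA is crosslinked to Ago by ultraviolet light, recovered with antibodies and sequenced, so that both the miRNAs and the mRNA fragments are read. Livers of C57BL/6 mice were taken on embryonic day e12.5, e15.5 or e18.5, on postnatal day 7 (P7), or as adults aged 6 to 8 weeks, and the tissue was exposed 3 times to light of 254 nm at 0.2 J/cm2. Antibodies to Ago2 were used throughout, with an Ago1 antibody in addition at P7 and in the adult, so antibody and postnatal stage cannot be told apart. The methods name 2 biological replicates for Ago2, but each stage is given as 1 table, called a library here, so no test between stages was possible. Intervals below have a 95% confidence level (Wilson intervals for shares), and they cover counting error only, since PCR copies are not independent molecules. The tables held between 76948 and 208193 clusters of overlapping reads, with summed reads of 13008703 to 44867326.

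A miRNA guides Ago to an mRNA mainly through its seed, bases 2 to 8 from the 5′ end, and the bound mRNA is then translated less and degraded faster. The miR-15/16 family is best known for restraining the cell cycle through cyclins, and members are encoded in pairs that are transcribed together. Because members share the seed, they can pair with the same sites, and a sequence match does not tell which member lay on a site. Whole liver was used, so fewer cells of a type and less RNA per cell cannot be told apart in any value below. Before birth the liver is also the main site of blood formation, and after birth hepatocytes make up most of its mass.

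The mature sequences (RefSeq, GRCm38.p6) are shown to make visible the shared seed, written in capitals, and the unlike 3′ parts.
miR-15a-5p: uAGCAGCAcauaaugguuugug
miR-15b-5p: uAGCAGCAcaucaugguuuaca
miR-16-5p: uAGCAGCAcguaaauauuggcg
miR-195a-5p: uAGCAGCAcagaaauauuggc
miR-322-5p: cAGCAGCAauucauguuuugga
miR-497a-5p: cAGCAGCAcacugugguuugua
All 6 carried the same 7 seed bases. Compared base by base from the 5′ end, miR-16-5p and miR-195a-5p differed at 2 of 21 bases, the closest pair, and miR-16-5p and miR-497a-5p at 11 of 22, the most distant. The genes lie in pairs, and the positions and distances given here are those of their mature sequences. Mir15a (chr14:61632075-61632096, minus strand) and Mir16-1 are 117 bases apart, Mir15b (chr3:69009775-69009796, plus strand) and Mir16-2 are 121 bases apart, and Mir497 and Mir195a are 310 bases apart on chromosome 11. Mir322 (chrX:53054306-53054327, minus strand) is 256 bases from Mir503, whose product is not a member but has the same bases 2 to 7.

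Other miRNAs can reach the same letters, and their sequences are given for that reason.
miR-503-5p: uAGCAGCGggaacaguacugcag
miR-103-3p: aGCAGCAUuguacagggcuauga
miR-107-3p: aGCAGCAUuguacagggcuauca
The miR-503-5p seed departs from the family's at its last base, and the seeds of miR-103-3p and miR-107-3p hold the same letters shifted by 1 base. With an overlap of at least 5 bases, miR-503-5p was listed at 93.9% of the family sites at e12.5 and 93.3% in the adult. MiR-103-3p or miR-107-3p was listed at 43.6% and 46.5%. For the latter pair this followed the kind of site, with 96.8% of the 8mers at e12.5 and 1.84% of the 6mers. In abundance these miRNAs stood far below miR-16-5p: miR-503-5p had 525 RPM (reads in 1000000 miRNA reads) at e12.5 and 16 in the adult, and miR-103-3p had 776 and 546.

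The family took a larger part of the Ago-bound miRNA reads in the adult than at e12.5. The 5 libraries had 4.25%, 3.94%, 10.1%, 3.95% and 14.9%, so the course was not steady, and e18.5 and the adult stood above the other 3 libraries. The e18.5 value depended on which list of its table was read: the table holds 2 lists whose origin is not stated (a supplement of the study names another e18.5 library, tied to neither), and the family had 11.9% in the first and 4.73% in the second. At e12.5 and e15.5 the lists lay between 3.92% and 4.33%. The read number is the whole number attached to a miRNA's name, which the tables do not explain and which was taken here as its read count.

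Most of the family was miR-16-5p, the member encoded by both the Mir15a and the Mir15b locus. Its miRNA RPM were 34870, 31779, 93000, 35070 and 140413, with 110057 and 43309 in the 2 lists of e18.5. MiR-16-5p was 82.1%, 80.6%, 92.5%, 88.9% and 94.1% of the family. It ranked 4th among all miRNAs at e12.5 and 2nd in the adult. The adult value was 4.03-fold the e12.5 value.

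The less abundant members went separate ways. MiR-195a-5p, the closest in sequence to miR-16-5p, had 200, 286, 242, 1356 and 4001 RPM, 19.99-fold higher in the adult than at e12.5. The 2 lists of e12.5 had 114 and 223 RPM, so the fold was 35.1 from the first and 17.9 from the second. Its partner miR-497a-5p had 25.3, 16.4, 16.2, 66.1 and 131 in the same order. In both, the 2 postnatal libraries lay above all embryonic ones, also when the embryonic lists were read separately.

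MiR-322-5p, encoded on the X chromosome, moved the opposite way, with 1159, 1815, 1121, 1099 and 186 RPM, 6.22-fold less in the adult than at e12.5. Read by list it had 1960 and 942 RPM at e12.5, and the fold was 10.5 and 5.06. The adult value lay below those of all other libraries and lists. MiR-503-5p beside it had 525, 340, 446, 133 and 16. For miR-322-5p P7 lay within the range of the embryonic lists. MiR-15b-5p had 2588, 2784, 1385, 731 and 606, a 4.27-fold lower value in the adult than at e12.5. MiR-15a-5p had 3654, 2725, 4770, 1137 and 3878, 1.06-fold higher in the adult than at e12.5, and a low value at P7. The direction depended on the list, with 5129 RPM in the first and 3256 in the second list of e12.5, above and below the adult. As a result the order of the members changed: miR-15a-5p was second in the family at e12.5 and miR-195a-5p in the adult.

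**Figure D1:**
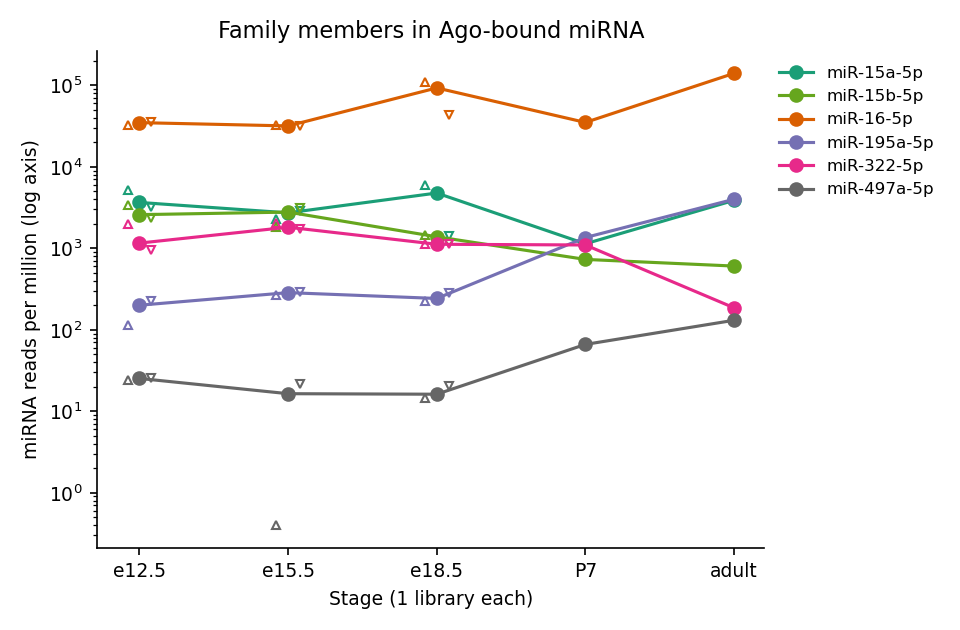
miRNA RPM (log axis) of the 6 family members in the 5 stage libraries. Filled circles joined by lines are the libraries, and open triangles are the first (upward) and second (downward) list of an embryonic table. miR-16-5p lies above the other members in every library, miR-195a-5p and miR-497a-5p are highest in the adult, and miR-322-5p and miR-15b-5p are lowest there.

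The miRNAs whose course was most like that of miR-16-5p were sought among 108 others with at least 1000 RPM in 1 library, by Pearson's r of log2(RPM + 1) over the 5 libraries, given as a description. They were miR-145a-5p (r = 0.96), miR-140-5p (0.94), miR-27a-3p (0.85), miR-126a-3p (0.82) and let-7g-5p (0.80). MiR-145a-5p had 138, 56.4, 360, 73.2 and 1587 RPM from e12.5 to adult, and was likewise highest in the adult and at e18.5. All 5 libraries are shared by these values, and r over so few points also follows any library that stands apart.

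The sites repeat 1 hexamer. Every site held GCTGCT, the complement of seed bases 2 to 7, in the GRCm38 sequence. A 6mer is GCTGCT alone, a 7mer-m8 is TGCTGCT, a 7mer-A1 is GCTGCTA and an 8mer is TGCTGCTA. Between 94.2% and 95.2% of the sites of a library were listed for all 6 members, so the sites cannot be divided among them. The tables also give a folding energy for each pairing, in which the members did differ: miR-497a-5p had the lowest energy at 35.1% (e15.5) to 40.3% (adult) of the sites listed for all members, and miR-322-5p at 17.9% to 23.2%. MiR-16-5p, by far the most abundant, was lowest at 8.39% to 10.9%. The median energy at e12.5 was -12.7 for miR-497a-5p, -11.6 for miR-322-5p, -10.8 for miR-16-5p and -10.1 for miR-195a-5p, in the tables' unit, which is not named there.

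By type, 6mers were 45.4%, 42.3%, 44.4%, 42.9% and 43.7% of the family sites, against 53.3% to 54.3% for all miRNAs. In 3′UTRs the family had more 7mer-m8 sites than all miRNAs (38.0% to 42.5% against 21.5% to 22.03%) and fewer 7mer-A1 sites (5.95% to 8.85% against 16.7% to 17.5%), and no intervals overlapped. The same tilt was present in the sequence itself: among every GCTGCT in 3′UTRs of the transcripts with a listed site, 37.4% were 7mer-m8 and 7.79% were 7mer-A1.

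8mers made up 10.8% (9.21 to 12.7%), 13.8%, 10.4% (8.16 to 13.05%), 10.6% and 11.2% (8.81 to 14.1%) of the family 3′UTR sites, against 7.39% to 8.34% for all miRNAs, and the intervals overlapped at e18.5 alone. Over all libraries 230 of 2565 distinct 3′UTR sites, 8.97% (7.92 to 10.1%), were 8mers, beside 6.52% (5.77 to 7.36%) of the hexamers in the same 3′UTRs. The 6mers were 43.4% (41.5 to 45.3%) of the sites and 48.3% (46.7 to 49.9%) of the hexamers. Runs of at least 3 GCT (GCTGCTGCT, on the strand of the transcript) enter this comparison unequally, because every hexamer of a run was counted while the tables seldom list overlapping sites. Without such runs the 6mers were still below the hexamers (46.8%, 44.8 to 48.8%, against 52.2%, 50.5 to 53.9%). The 8mers were above, though with overlapping intervals (8.77%, 7.70 to 9.98%, against 6.96%, 6.13 to 7.89%). The 7mer-m8 sites were above as well (35.5%, 33.6 to 37.4%, against 31.9%, 30.3 to 33.5%).

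The 8mers had high conservation scores more often than the 6mers. Each site has a conservation score from 0 to 1, whose method the tables do not name, and a score of 0.9 or more was taken as high. Of the family 3′UTR 8mers, 60.7% (52.3 to 68.6%), 57.95%, 69.4%, 59.5% and 50% (37.9 to 62.1%) were high. For the 8mers of all miRNAs the values were 38.8%, 45.2%, 41.3%, 36.2% and 38.5%, and the intervals of family and all overlapped in the adult library alone. The 6mers of the family were high at 32.3% at e12.5 and 29.9% in the adult, beside 32.0% and 30.4% for 6mers of all miRNAs, and the intervals of these overlapped.

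**Figure D2:**
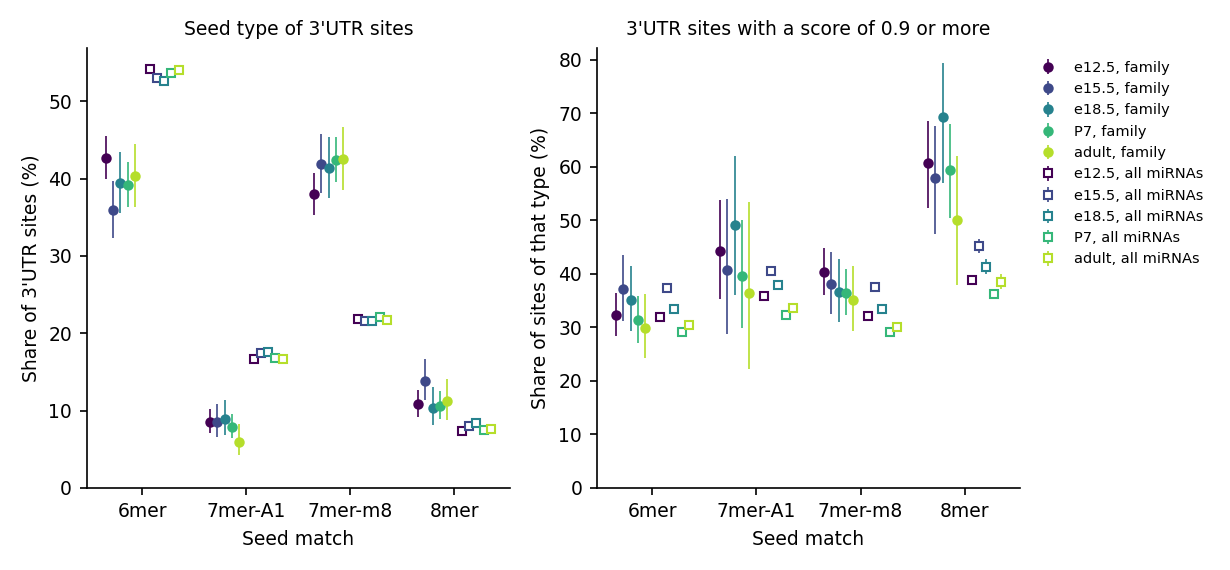
Left, share of 3′UTR sites (%) by seed match. Right, share of the 3′UTR sites of each seed match (%) with a conservation score of 0.9 or more. Filled circles are the family, open squares all miRNAs, colours are the 5 libraries and bars are 95% intervals. The family has more 7mer-m8 and 8mer sites and fewer 7mer-A1 sites than all miRNAs, and its 8mers reach 50% to 69.4% high scores.

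Coding sequence (CDS) held more family sites than the 3′UTR or 5′UTR in every library. CDS sites were 42.8%, 45.5%, 49.4%, 51.6% and 60.8% of the family's, above the sites of all miRNAs in each library (34.4%, 39.4%, 40.0%, 45.3% and 53.1%). The 3′UTR held 20.1%, 20.9%, 20.3%, 22.4% and 16.96% of the family sites, below all miRNAs in each library (22.7%, 25.3%, 23.8%, 25.3% and 19.5%). The 5′UTR share was small, 3.37% to 5.12%, and again above that of all miRNAs (2.54% to 3.41%). The rise of the CDS share with age was thus shared by sites of all miRNAs.

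Within the CDS the reading frame was uneven. GCTGCT can be read as a pair of alanine codons (GCT GCT), around a leucine codon (nnG CTG CTn) or around a cysteine codon (nGC TGC Tnn). On 1 transcript per gene (GENCODE vM21), 55.7% of 5519 placed CDS sites were in the leucine frame, 34.5% in the alanine frame and 9.78% in the cysteine frame. Every GCTGCT in the CDS of the transcripts with a CDS site in any library, the placed sites included, gave 56.3%, 33.3% and 10.4%, with overlapping intervals. Single libraries differed from this sum, with 37.8% (35.9 to 39.7%), 41.5% (38.9 to 44.2%), 37.6% (35.05 to 40.2%), 33.7% and 32.9% in the alanine frame. The embryonic intervals lay above that of the hexamers (32.5 to 34.2%), and those of P7 and the adult overlapped it, which also held without runs of 3 GCT. The hexamers are the same set for every library, so a difference in which transcripts a library lists cannot be told apart here. By type the alanine frame was more frequent in 7mer-A1 sites (47.4%, 42.4 to 52.4%) and 8mers (46.2%, 40.7 to 51.7%), which end in A, than in 6mers (32.9%, 31.1 to 34.7%) and 7mer-m8 sites (32.5%, 30.6 to 34.5%). Along the 3′UTR, 38.5% (36.3 to 40.8%) of 1843 placed sites lay in the first of 4 equal parts after the stop codon, against 32.8% (31.3 to 34.3%) of all GCTGCT in those 3′UTRs, and 16.5% in the last against 19.6%.

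The share of Ago clusters that contain a family site did not pass the 1.5-fold used as a call between e12.5 and adult, and its direction depended on the unit counted. Of the 3′UTR clusters, 3.15% (1243 of 39452), 3.496% (637 of 18219), 3.68% (595 of 16150), 3.71% (1098 of 29603) and 3.49% (555 of 15914) had one. From e12.5 to adult the log2 ratio was 0.15 (0.00 to 0.29). Counted by gene, a family site was present in 12.8% of the genes with any 3′UTR site at e12.5 and 8.94% in the adult, a log2 ratio of -0.52 (-0.66 to -0.38). A gene with more clusters has more chances of a family site. The 39452 clusters at e12.5 fell on 8411 genes and the 15914 of the adult on 5752, so this fall cannot be told apart from table size. Other seed families were not counted by gene. In 3′UTR cluster share, 59 (19.2%) of 307 seed families with at least 50 clusters in both libraries passed 1.5-fold, 10.7% as higher and 8.47% as lower. The miR-15/16 family was 106th from the highest. The share of the family in miRNA reads was 3.51-fold higher in the adult. In the CDS the cluster share was 4.51%, 4.86%, 5.37%, 4.82% and 5.08%, above the 3′UTR share in every library with no overlap of intervals. Its log2 ratio from e12.5 to adult was 0.17 (0.09 to 0.25), again not past 1.5-fold, which 9.52% of 378 seed families passed as higher and 3.7% as lower (13.2% in all).

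A cluster with a family site usually held matches to other miRNAs too. The median number of seed families matched in a family 3′UTR cluster was 7, 6, 6, 7 and 7, the family itself and the seeds of overlapping letters shown above included, and over all 3′UTR clusters 4, 3, 3, 4 and 3. The family clusters were chosen for holding a site, and their listed sites spanned a median of 25, 21, 19, 21 and 21 bases, beside 18, 15, 14, 17 and 15 over all, so the numbers of families cannot be compared directly. A site of the 10 other most abundant seed families was present in 8.29% (6.88 to 9.95%), 7.06%, 7.06%, 9.65% and 16.2% (13.4 to 19.5%) of the family clusters. Over all 3′UTR clusters the values were 10.7%, 12.8%, 15.04%, 15.2% and 18.7%. These cannot be compared directly either, because a cluster is in the tables only when it holds a listed site, which for the family clusters is the family's own.

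**Figure D3:**
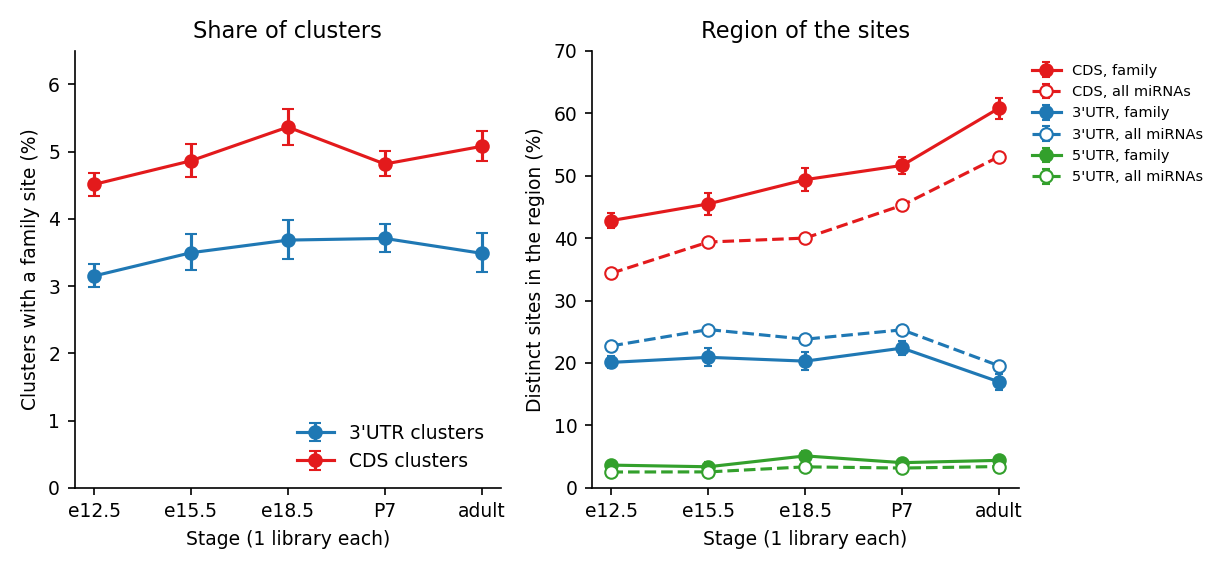
Left, share of 3′UTR and CDS clusters with a family site (%). Right, share of distinct sites in the CDS, 3′UTR and 5′UTR (%), for the family (filled, solid) and all miRNAs (open, dashed), in the 5 libraries. Bars are 95% intervals. The cluster shares stay between 3.15% and 5.37%, and the CDS share of sites rises from 42.8% to 60.8%, in parallel with all miRNAs.

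Family sites, counted by position, recurred between stages more often than those of most seed families. Of 2565 distinct 3′UTR sites 941 (36.7%) were listed in at least 2 libraries and 50 (1.95%) in all 5. Among 280 seed families that were listed in every library with at least 200 such sites, the median share in at least 2 libraries was 25.7%, and the miR-15/16 family was 16th from the highest. In the CDS 172 of 5847 sites were listed in all 5 libraries, 2.94% against a median of 1.2531%. By gene, 2030 genes had a family 3′UTR site, with 1078, 574, 549, 991 and 514 per library. Of these genes 942 (46.4%) had one in at least 2 libraries and 67 (3.30%) in every library. Among the 11065 genes with a 3′UTR site of any miRNA, which can recur through any of their sites, 78.1% had one in at least 2 libraries and 25.7% in all 5. Of the family genes 422 (20.8%) had at least 2 sites over all libraries. The number of genes in a library had the same order as its number of 3′UTR clusters.

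Reads at recurrent sites did not move as one. At the 183 3′UTR sites shared by e12.5 and adult, the median log2 change in RPM of summed cluster reads was -0.22, beside 0.20 over the 11741 shared 3′UTR sites of all miRNAs. Past 2-fold, 52 family sites (28.4%) were higher in the adult, where 33% of all shared sites were, and 70 (38.3%) were lower, where 28.8% of all were. The sign of the family median depended on the scaling. With the library totals of the study's supplement it was 0.09, with 63 sites (34.4%) higher and 55 (30.05%) lower, beside a median of 0.50 and 39.8% and 24.1% for all. On either scale the family median lay 0.42 below that of all sites. The read column has another name at e12.5 than in the later tables, and it was taken as the same measure, which the tables do not settle. The lower and upper quartile of the family values were -1.50 and 1.10. In the CDS the median was 0.30 at 652 shared family sites and 0.55 over all, with 235 (36.04%) higher and 182 (27.9%) lower, against 41.1% and 23.4% of all.

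The genes with most reads at family 3′UTR sites, among those with a site in every library, were of diverse functions. For the 6 of highest mean RPM, 1 site with reads in every library is shown. For Crebrf this is the 8mer (mean 6.42 RPM), although its 6mer had more (15.9). Matched bases are in capitals (GRCm38, strand of the transcript).
Dvl2, chr11:70012108-70012114, plus strand: cccactgccccaggTGCTGCTggg
Itgb1, chr8:128733006-128733012, plus strand: actgtaagctgtccTGCTGCTtgc
Mtmr3, chr11:4482334-4482340, minus strand: tgactggtaaacctTGCTGCTggg
Ppap2b, chr4:105231069-105231075, plus strand: cgactgcacgttccTGCTGCTctc
Clu, chr14:65981481-65981487, plus strand: ctaatgcctgcactTGCTGCTctc
Crebrf, chr17:26773905-26773912, plus strand: tgattcctgccattTGCTGCTAaa
All were annotated as 3′UTR by the tables. The reads given below are the highest read number of the cluster, as listed, or its RPM of the summed cluster reads.

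Dvl2, a scaffold protein of the Wnt pathway, had the highest mean. Its single 7mer-m8 site, with a conservation score of 1, had 7443, 1672, 1394, 655 and 2120 reads. In RPM these were 166, 101, 107, 39.7 and 85.2, so the site was high in all libraries and lowest at P7.

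Itgb1, the beta 1 subunit of integrin receptors for extracellular matrix, had 70.2, 53.2, 54.0, 14.7 and 4.46 RPM over both of its sites. Mtmr3, a lipid phosphatase acting on phosphoinositides, had 50.4, 65.1, 55.0, 6.00 and 2.93. Fbxo3, a substrate receptor of a ubiquitin ligase, had 37.6, 26.7, 31.8, 7.52 and 1.57. These 3 genes were high before birth and low after it, and the ranges of embryonic and postnatal values did not overlap. The scores of their leading sites were low, 0.081, 0.003 and 0.003.

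Ccnf, the gene of cyclin F, had 9.87, 41.3, 15.99, 6.67 and 1.005 RPM at a 6mer. It was highest at e15.5 and lowest in the adult.

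Clu, encoding the secreted chaperone clusterin, had the opposite course, with 25, 116, 289, 1242 and 832 reads, or 0.557, 7.02, 22.2, 75.3 and 33.4 RPM. Ppap2b, a lipid phosphate phosphatase, had 1.69, 12.7, 49.6, 62.2 and 13.5 RPM. In both genes e12.5 was the lowest library and P7 the highest.

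Crebrf, a regulator of the CREB3 transcription factors, held 4 sites and stayed between 20.2 and 37.8 RPM. The 6mer had 788, 48, 355, 419 and 163 reads and the 8mer 117, 291, 29, 75 and 127, so the 8mer was the higher of these at e15.5 alone, and a 7mer-A1 and a 7mer-m8 were listed at P7 and in the adult only. Smarcd2, a subunit of the SWI/SNF chromatin remodelling complex, had 12.48, 6.24, 42.1, 13.6 and 11.3 RPM, with e18.5 apart from the rest.

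**Figure D4:**
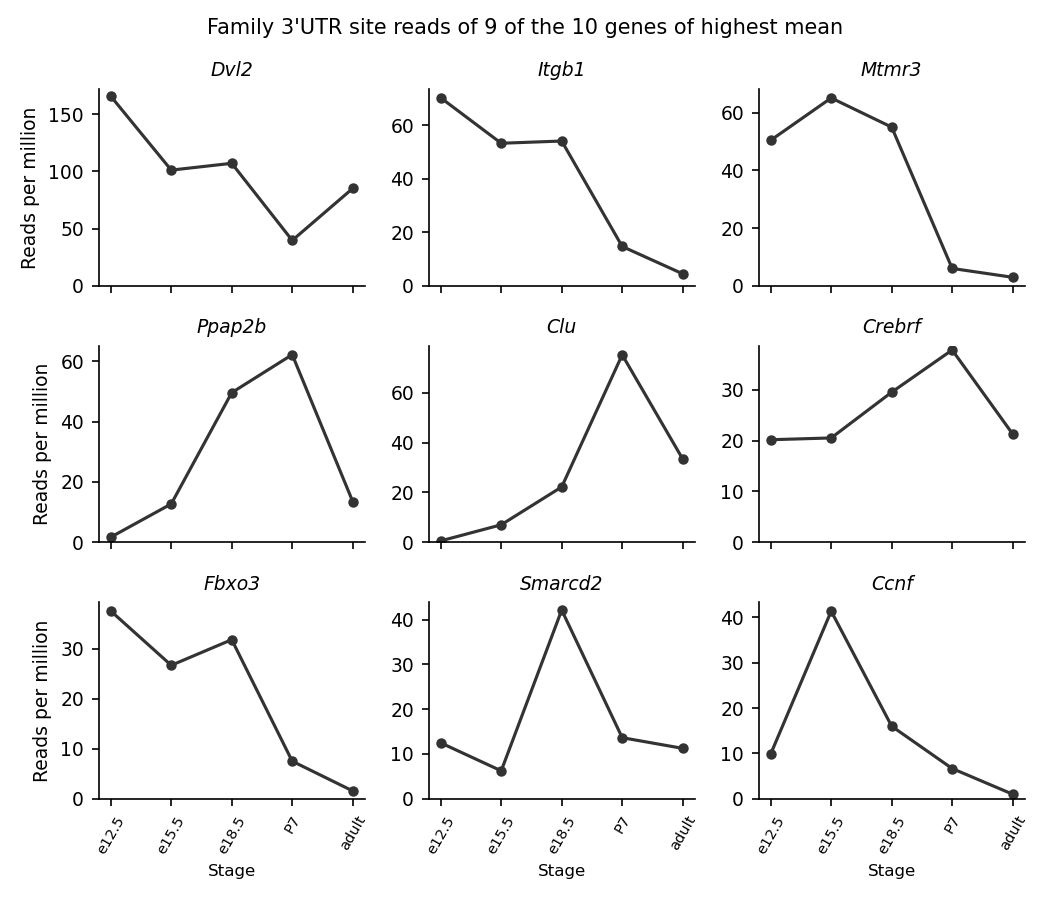
RPM of the summed cluster reads (linear axes, each from 0) at family 3′UTR sites of 9 of the 10 genes of highest mean, in the 5 libraries with 1 point each and lines only to guide the eye. Itgb1, Mtmr3 and Fbxo3 fall after birth, Clu and Ppap2b are highest at P7, and Dvl2 lies between 39.7 and 166.

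Among 124 3′UTR positions of 7 or 8 matched bases listed in both e12.5 and adult liver with at least 20 reads in 1 of them, 33 (26.6%) were higher and 49 (39.5%) lower in the adult past 2-fold. By the same rule over the 5336 positions of all miRNAs, 32.2% were higher and 30.8% lower. With the supplement's totals the family had 42 higher and 39 lower, and of all positions 38.3% and 25.9% were. Clu had the largest rise (log2 5.91). It was followed by Gprc5c, an orphan G protein-coupled receptor (4.15, from 6 to 59 reads), Mtch2, a mitochondrial outer membrane protein (3.99, from 6 to 53), Selenbp1, a selenium-binding protein (3.90, from 7 to 58), and Rabac1, a Rab-binding membrane protein (3.5, from 22 to 138). All 5 of these rises start from 25 reads or fewer.

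Of the 5 largest falls 4 are described. Vti1b, a SNARE of vesicle fusion, had 265, 254, 22, 40 and 6 reads from e12.5 to adult (log2 change between the ends -4.61). Itgb1 had a change of -4.28 and Mtmr3 of -4.09, and Tmem55b, a lysosomal lipid phosphatase, had 272, 41, 123, 57 and 10 reads at an 8mer (-3.92). The Tmem55b site, cattaggaccttgcTGCTGCTAtt on chr14:50927505-50927512 (minus strand), had a score of 1. RNA levels of these genes were not measured in these tables, so their part in the reads was not tested.

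In the CDS the family sites of most reads were in mRNAs made by red blood cell precursors and hepatocytes, and in Tcp1. The adult β-globin genes Hbb-bt and Hbb-bs share the 6mer context actgatgctgagaagGCTGCTgtc (chr7:103813837-103813842 and chr7:103827843-103827848, minus strand). For Hbb-bt it had 25394, 14225, 16250, 6244 and 969 reads. The 2 genes are near-identical there and had the same numbers from e15.5 on, so their reads cannot be assigned to either.

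Alb, which encodes the main plasma protein made by hepatocytes, had 1266, 1773, 4320, 4150 and 30575 reads at the 6mer gatacatgttgcaagGCTGCTgac (chr5:90474667-90474672, plus strand), a log2 change in RPM of 5.44 between e12.5 and adult. Its 7mer-m8 at chr5:90468624-90468630 had 551, 1728, 1020, 2325 and 3279. Tcp1, a subunit of the chaperonin that folds actin and tubulin, had 6340, 2241, 718, 385 and 169 reads at the 8mer gactgtctgatcaaTGCTGCTAag (chr17:12919887-12919894, plus strand), the 1 of these 5 sites with a score of 1. The scores of the globin and Alb sites were 0 to 0.098.

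Genes known from the literature as targets of the family, or acting in its pathways, were examined in 7 lists with 51 genes. Of these 46 had a 3′UTR site of any miRNA in some library, and 33 of the 46 (71.7%) had a family 3′UTR site, beside 18.3% (2030 of 11065) of all genes with a 3′UTR site. Genes with more listed 3′UTR sites of any miRNA have more chances of a family site, and the comparison was not matched for this. It therefore does not show that these genes exceed equally listed genes. The 51 family 3′UTR sites of the 33 genes included 11 8mers (21.6%, 12.49 to 34.6%), beside 8.97% over all family 3′UTR sites, and 35 (68.6%, 55.0 to 79.7%) had a high conservation score, beside 35.7%. Known targets are often predicted from conserved sites of this kind, so these features and the choice of the lists are not independent. Of the 33 genes 21, 11, 11, 16 and 6 had a site per library, which is 63.6%, 33.3%, 33.3%, 48.5% and 18.2%, beside 53.1%, 28.3%, 27.04%, 48.8% and 25.3% of the 2030 genes.

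All 6 genes of the list of E2F factors and mitosis had a family 3′UTR site at e12.5, and 0, 1, 2 and 0 had one in the later libraries. Of the 6 genes 6, 6, 4, 5 and 1 had a 3′UTR site of any miRNA, Anln being the 1 in the adult. The transcription factor gene E2f3 had 298 reads at e12.5, 7 at e18.5 and 24 at P7. Kif23, a kinesin of cytokinesis, had 115 reads at e12.5, Birc5, encoding survivin, 113, Anln, an actin-binding protein of the cleavage furrow, 62, E2f7 32 and the mitotic kinase gene Plk1 15. Plk1 had more reads in its CDS, with 345, 336, 87 and 8 from e12.5 to P7.

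Of the 10 cyclins and kinases of the cell cycle 6 had a family 3′UTR site, and all 4 cyclins did. Sites of 3 cyclins and of Cdc25a are shown because these genes are classical targets.
Ccnd3, chr17:47599470-47599476, plus strand: ctttgtggcccaggaGCTGCTAca
Ccnd2, chr6:127128611-127128617, minus strand: ttattattatttttcGCTGCTAag
Ccne1, chr7:38098023-38098030, minus strand: tcttattttgtaagTGCTGCTAtg
Cdc25a, chr9:109892870-109892877, plus strand: ctgcagaccagtatTGCTGCTAct
Ccnd3 had 422 reads at e12.5 over both of its sites, then 52, 68, none and 20. Ccnd2 had 33, 74 and 22 reads at e12.5, e15.5 and P7. Ccne1 had 55 at e15.5 and 64 at e18.5, and Ccnd1 had 10 at e12.5 and 11 at P7. Ccnd1 was listed more widely in its CDS, with 46, 25, 10 and 31 reads at e12.5, e15.5, P7 and in the adult. Cdc25a, a phosphatase that activates cyclin-dependent kinases, had 58 reads at e12.5 and 6 at P7. Cdk6, Chek1 and Ppm1d had no family site in a 3′UTR or CDS in any library, and Wee1 had CDS sites only.

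Of the survival genes, Mcl1 had 3′UTR 6mers with scores of 0 and 0.143 and a CDS 7mer-m8 with a score of 1. Bcl2, a well-known target in leukaemia, and Bcl2l2 had no family site in a 3′UTR or CDS, and Bcl2 had a 3′UTR site of any miRNA at P7 only. In growth factor, insulin and Wnt signalling 8 of 14 genes had a family 3′UTR site. Insr, the insulin receptor gene, held 4 sites with 40 reads at e12.5 and 164 at e18.5. Igf1r, whose product binds insulin-like growth factors, had none in its 3′UTR but a CDS 8mer with 88, 149, 35 and 106 reads from e12.5 to P7. The 8mer of Vegfa was listed at P7 with 18 reads.

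In TGF-β and BMP signalling 3 of 5 genes had a family 3′UTR site, and in the list of chromatin and transcription 2 of 5. Smad7, the inhibitor of TGF-β signalling, had an 8mer that was not listed at e12.5 and carried 43, 82, 60 and 81 reads in the later libraries. Myb, a transcription factor of blood progenitors, had 478, 34, 239 and 30 reads before the adult, where none was listed. Its 8mer lies at chr10:21125459-21125466 on the minus strand, ttagcctgtagtcaTGCTGCTAgc, with a score of 1.

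The miRNA machinery itself carried family sites: 7 of 8 genes had one in the 3′UTR and Ago4 had one in the CDS. Tnrc6b, a GW182 protein that links Ago to mRNA decay, was the 1 gene of all 7 lists with a family 3′UTR site in each of the 5 libraries. It had 655, 219, 303, 109 and 30 reads over 4 sites, none of which was itself listed in all 5. The adult reads were at a 7mer-m8 that was otherwise listed at e12.5 alone, with 11 reads. The Tnrc6b 8mer, tgtcctctgtgactTGCTGCTAtt at chr15:80931456-80931463 on the plus strand, had 56 reads at e12.5, 84 at e18.5 and 15 at P7. Ago2 had 12, 46, 64 and 10 reads from e12.5 to P7, Ago1 had 54 at P7, Ago3 28 in the adult and Dicer1 32 at e12.5.

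**Figure D5:**
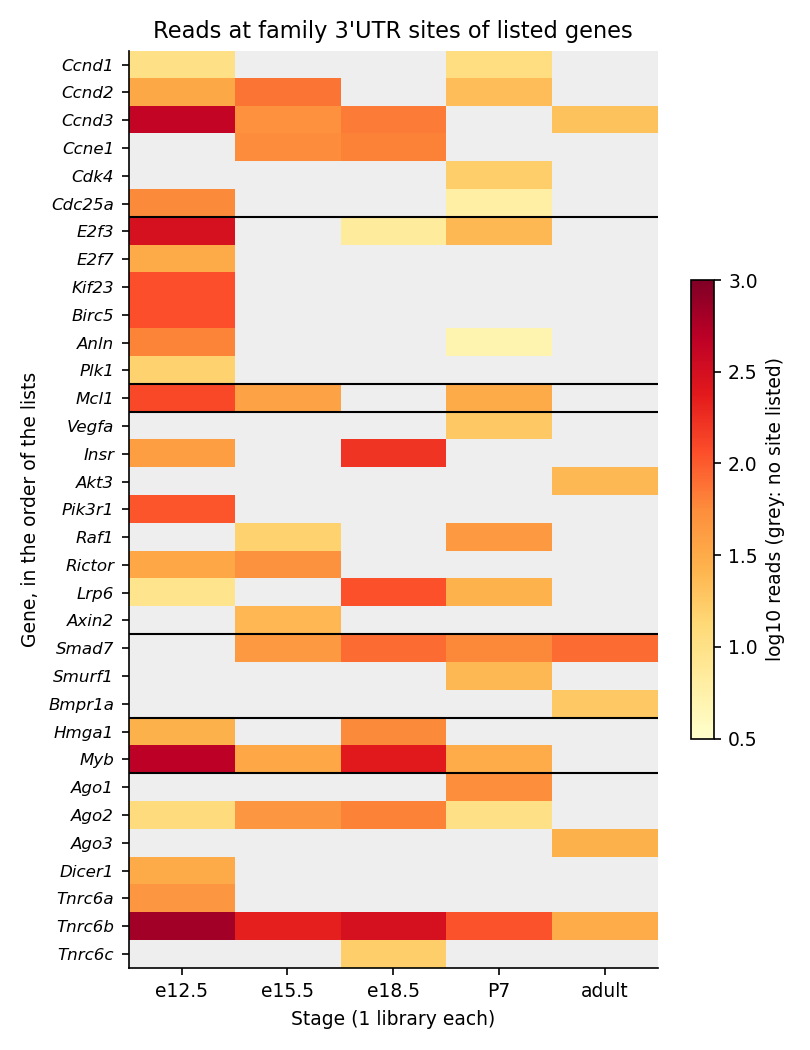
log10 of the reads at family 3′UTR sites (colour) of the 33 listed genes with such a site, by library. Grey means that no site was listed, and black lines divide the lists. The 6 genes of E2F factors and mitosis, from E2f3 to Plk1, are coloured at e12.5, and Tnrc6b is coloured in all 5 libraries.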

How the data were processed

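The members and gene lists were chosen with earlier results of these data known. Reads were preprocessed by the authors with the FASTX-Toolkit, mapped with Bowtie to mm10 and to miRBase precursors, grouped into clusters and scanned for seed matches. The versions of these tools are not given in the sources used here. The deposited read column is a signal, the highest read number of a cluster, not scaled, with a lowest value of 5. At e12.5 its name refers to the miRNA target and at the later stages to the peak, and the columns were taken as the same measure. The conservation score and the folding energy score were deposited by the authors without a named method. The number in each interaction name was read as the miRNA's read count, and the highest over gene copies was used.

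The 3 embryonic tables hold 2 lists each, which are not labelled as replicates. A supplement of the study names another e18.5 library, which the labels tie to neither list. Overlapping clusters of the lists on 1 strand were joined, and reads and miRNA numbers were added. RPM values (per 1000000) refer to the summed cluster reads or to the summed miRNA numbers of a table (7781484 to 25546696). Clusters without a site are not in the tables, so these sums are not the depth of the libraries. Listed positions were read from GRCm38 with pysam 0.24.0, and coordinates count from 1. Where a site was annotated in several regions it was counted in each.

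Shares have Wilson 95% intervals, log2 ratios of shares normal intervals from the counts. Interval and fold calculations were tested on simulated data. With 1 library per stage no p-value was computed. The genes named were the 10 with most 3′UTR reads RPM among those with a site in every library, the 5 largest rises and falls at positions of at least 7 matched bases with at least 20 reads in 1 library, the 5 CDS positions with most reads in every library, and the lists. Of these, 1 gene of the first kind and 1 fall are not reported here. Reading frame and 3′UTR place used the transcript of longest CDS, on which 94.4% of the CDS sites and 71.9% of the 3′UTR sites could be placed. Alternatives were 10 reads, 7 matched bases, single lists, other regions, added gene copies, a pseudocount of 1 RPM and the library totals of the study's supplement. Computations used Python 3.11.15, numpy 2.4.6 and pandas 2.3.3.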

Additional observations from a re-analysis of the deposited data

How the results depend on the processing

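Of the recomputed values 73 stayed within the counting interval of the reported value, or within 1.5-fold for a count, 66 moved and 1 changed direction beyond that interval: the adult value of miR-15a-5p was 0.756 times that of e12.5 from the first list and 1.19 times from the second. The folds by list, and the shares without runs of 3 GCT, were chosen after seeing the data. No paired analysis was possible because each stage has 1 library. The change of the 3′UTR cluster share from e12.5 to adult stayed below 1.5-fold under all 4 of its alternatives (log2 0.10 to 0.21). The median read change at shared 3′UTR sites also changed sign, from -0.22 to 0.09, with the supplement's library totals, which add 0.30 to every value, those of all miRNAs included, and the family stayed 0.42 below them (family minus all, -0.42).

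With at least 7 matched bases the sites numbered 3389, 1760, 1642, 2802 and 1842 from e12.5 to adult, the 3′UTR cluster share was 1.81%, 2.24%, 2.24%, 2.26% and 2.08%, and the genes with a 3′UTR site numbered 652, 381, 350, 627 and 317, or 1262 over all libraries. The 3′UTR held 23.2% (e15.5), 22.1% (e18.5) and 23.8% (P7) of these sites, the CDS 49.2% at P7 and 58.5% in the adult, and the 5′UTR 3.28% and 3.42%. Their median 3′UTR conservation score was 0.805 at e12.5 and 0.709 at P7. With at least 10 reads the CDS share was 44.8% (e12.5), 49.2% (e15.5), 55.8% (P7) and 63.8% (adult), the 3′UTR share 21.3% (e12.5) and 22.4% (e15.5), and the 3′UTR cluster share at P7 3.94%. Counted per gene with any 3′UTR site the family share was 12.8%, 9.67%, 9.18%, 12.2% and 8.94%.

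In 3′UTRs alone 6mers were 42.7%, 35.9%, 39.4%, 39.2% and 40.4% of the family sites. Adding the gene copies of a miRNA raised the family to 7.10%, 6.41%, 16.2%, 5.78% and 19.9% of miRNA reads. The first list gave 4.33% (e12.5), 3.92% (e15.5) and 11.9% (e18.5), and the second 4.23% (e12.5) and 4.73% (e18.5). The high value at e18.5 was thus in the first list alone. The second list of e18.5 gave a 3′UTR cluster share of 4.13%.

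The tables list clusters from 5 reads on, so absence at a stage was not separable from depth.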
